A study of Rattus norvegicus with 13 samples.

Results

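The sodium pump genes described here are the beta subunits Atp1b1, Atp1b2 and Atp1b3 and the FXYD regulators Fxyd1 and Fxyd2, measured on Affymetrix Rat 230A arrays of rat glomeruli. A probe set belonged to the group when its only gene symbol was one of these 5 names, which gave 6 probe sets of the 15923 on the array and 5 of the 10412 genes with a single symbol. Atp1b1 had 2 probe sets, 1367814_at and 1386937_at, both listed under the same accession. Atp1b2 (1369798_at), Atp1b3 (1398300_at), Fxyd1 (1369960_at) and Fxyd2 (1387799_at) had 1 each. Of the 6 probe sets, 5 passed a filter that left out the dimmest 30% of the array, and the probe set of Atp1b2 did not pass.

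The sodium pump, Na,K-ATPase, uses ATP to move sodium out of the cell and potassium in. Its catalytic alpha subunit carries the ions, its glycosylated beta subunit is needed for folding and for delivery to the plasma membrane, and small single-span FXYD proteins bind the complex and adjust its affinity for ions. In the kidney the pump sits in the basolateral membrane of tubule cells, where its gradient drives the reabsorption of sodium, glucose and phosphate, and Fxyd2 is the gamma subunit found on pumps of the proximal tubule and the thick ascending limb. The glomerulus, the capillary tuft that filters plasma, is made of podocytes, endothelial cells and mesangial cells, none of which carries out this transport.

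All 13 samples came from untreated Lewis-Hsd rats aged 18 weeks on a regular diet. In the 4 samples titled LCM 20 and the 5 titled LCM 800, glomeruli were cut from frozen kidney sections 10 µm thick by laser capture microdissection, in which a laser lifts chosen cells off a slide, and the RNA went through 2 rounds of amplification. The protocols name 800 glomerular cross-sections for both of these groups, and what the 20 in the title counts is not stated. In the 4 sieved samples, titled iron, glomeruli of the other kidney of a pair were isolated with magnetic iron oxide and sieves to a stated purity over 99%, and 6 µg of RNA was labelled without amplification. The groups are called LCM20, LCM800 and sieved here. Perfusion with iron, the way of isolation and amplification changed together between the laser-captured and the sieved groups, so their effects cannot be told apart. The titles call the replicates biological, but nothing in the labels says that an equal replicate number marks the same rat. The sample description also mentions embryos, and the extraction text mentions anti-Thy1.1 rats, neither of which matches the other labels.

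Values are MAS5 signals on a linear intensity scale, scaled to the same trimmed mean on every array. Differences were tested on log2(signal + 65.3) with limma over all 11106 tested probe sets, and a difference passed at a Benjamini-Hochberg adjusted p under 0.05. Because of the added 65.3, a log2 change understates the ratio of signals for dim probe sets. Levels are compared between groups for a given probe set and not between probe sets. The arrays of a group were not equally alike: LCM800 replicates 1 to 3 correlated with each other at r of 0.893 to 0.930 across probe sets, and with replicates 4 and 5 at 0.718 to 0.812. Replicates 4 and 5 correlated with the LCM20 arrays at 0.855 to 0.907. Sieved replicate 3 correlated with the other sieved arrays at 0.873 to 0.897, while the other sieved arrays reached 0.984 with each other. The correlations run across probe sets, which are not independent replicates. Where a result on the members moved much without some of these arrays, that value is given too. For the lists only part of such values is given.

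The labelled tissue was checked against marker lists. All 10 podocyte, 10 glomerular endothelial and 10 mesangial markers with a probe set passed the filter. Of the podocyte markers, 5 rose, 3 fell and 2 did not pass in LCM800 against sieved (median log2 change 0.83), and 5 rose, 1 fell and 4 did not pass in LCM20 against sieved (median 0.79). Of the endothelial markers, 4 rose and 6 did not pass in LCM800 (median 0.71), and 4 rose, 1 fell and 5 did not pass in LCM20 (median 0.67). Of the mesangial markers, 4 rose, 2 fell and 4 did not pass in LCM800 (median 0.49), and 3 rose, 2 fell and 5 did not pass in LCM20 (median -0.06). These lists moved with sieved replicate 3 and LCM800 replicates 1 to 3. Without sieved replicate 3, 7 podocyte markers rose and 1 fell in LCM800 (median 1.22), 6 rose and 0 fell in LCM20 (median 1.16), and the mesangial medians were 0.77 in LCM800 and 0.26 in LCM20. The endothelial medians were then 1.03 in LCM800 and 1.01 in LCM20. Without LCM800 replicates 1 to 3, 4 podocyte markers rose and 1 fell in LCM800. The LCM800 medians were then 0.74 for podocyte, 0.25 for endothelial and 0.044 for mesangial markers. The sign of the mesangial median in LCM20 thus turned with 1 sieved array. Of 19 proximal tubule markers, 18 fell and 1 rose in LCM800 (median -3.10), and 18 fell and 1 did not pass in LCM20 (median -2.98). Of 11 markers of the loop, distal tubule and collecting duct, 6 fell, 1 rose and 4 did not pass in LCM800 (median -1.09), and 8 fell and 3 did not pass in LCM20 (median -2.25). The proximal tubule list thus fell nearly throughout, and the list of later segments fell in part. In LCM800 the median of the later segments was -1.59 without LCM800 replicates 4 and 5 and -0.79 without replicates 1 to 3. Of 9 leukocyte markers, 5 rose and 1 fell in LCM800, and 3 rose and 1 fell in LCM20; of 3 erythrocyte markers, 1 rose and 1 fell in each. Both comparisons use the same 4 sieved arrays. The median change of all tested probe sets was 0.22 in LCM800 and 0.17 in LCM20, each against sieved. Of all tested probe sets, 31.8% rose and 20.1% fell in LCM800, and 26.2% rose and 19.2% fell in LCM20. The mesangial counts and the endothelial rises stood near these shares.

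Against the sieved glomeruli, 4 of the 5 tested probe sets fell in LCM800 and none rose. They were both probe sets of Atp1b1, Atp1b3 and Fxyd2. Across all tested probe sets the share called was 51.9% in either direction, 20.1% lower and 31.8% higher. In LCM20 against the same sieved arrays, 2 of the 5 fell, 1367814_at of Atp1b1 and Fxyd2, and none rose, where the share of all probe sets called was 45.3% in either direction, 19.2% lower and 26.2% higher. Between LCM20 and LCM800, limma called 0 of the 5, and 0 of the 5 had an unadjusted p under 0.05, where the lowest was 0.0574. The share of all probe sets called there was 0.153% in either direction, 0.072% higher and 0.081% lower. Without LCM800 replicates 1 to 3 the member calls were 2 in LCM800 and 4 in LCM20, each against sieved. That fit is among the alternatives run, and the share of all probe sets called in it alone is not given. Under all alternatives run, calls over all probe sets were 3503 to 7408 in LCM800 and 3260 to 6422 in LCM20, each against sieved. The lowest of these came with fewer probe sets tested. Without LCM800 replicates 4 and 5, 2 of the 5 were called between LCM20 and LCM800, both higher in LCM20. In that fit 2581 of all 11106 tested probe sets were called there, 1264 higher and 1317 lower.

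**Figure D1:**
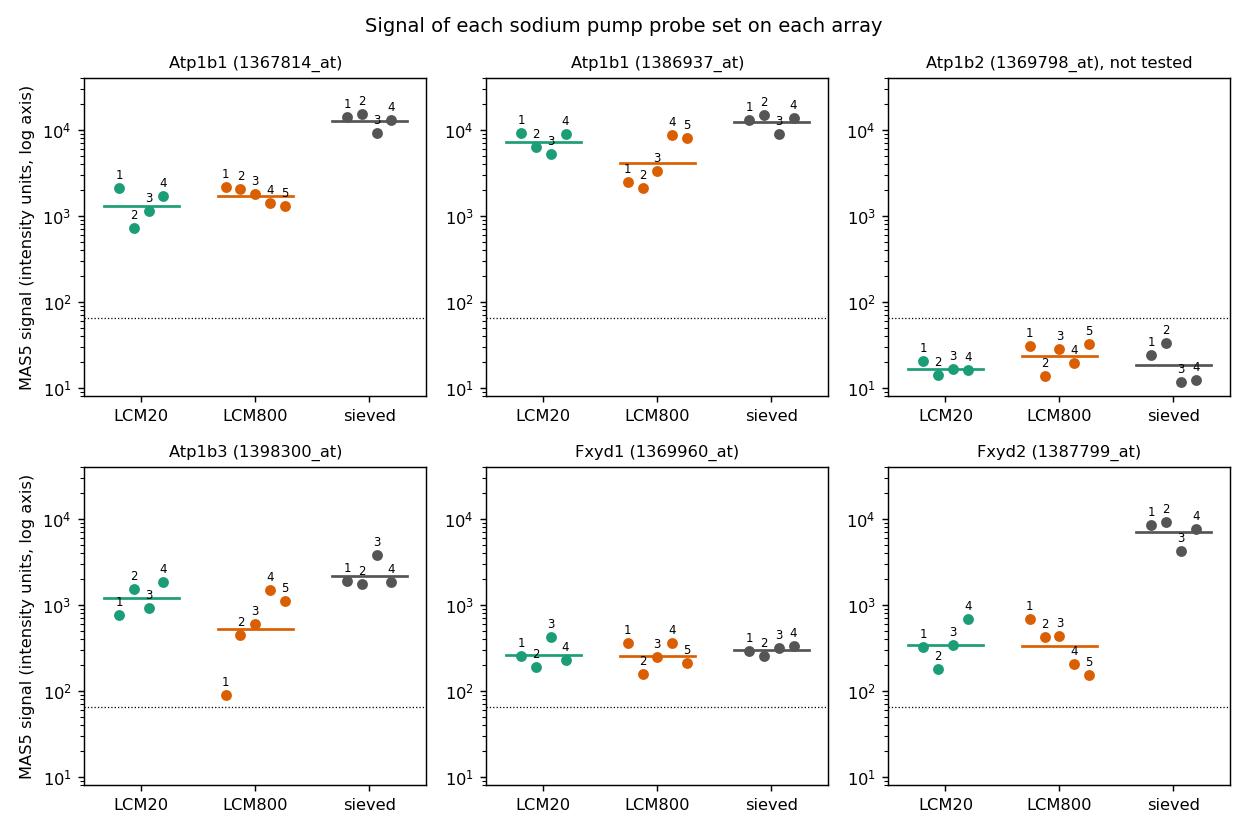
MAS5 signal (log axis) of each of the 6 probe sets on every array, for LCM20, LCM800 and sieved, with numbered points for arrays, a horizontal line for the geometric mean of a group and a dotted line at the added 65.3. Fxyd2 and 1367814_at of Atp1b1 lie far below the sieved arrays on all 9 laser-captured arrays, 1386937_at and Atp1b3 spread widely within LCM800, Fxyd1 overlaps between all groups, and Atp1b2 lies under the added 65.3 on all 13 arrays.

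Fxyd2, the gamma subunit of tubular pumps, had the lowest laser-captured share of its sieved level among the members. Its signals were 319.3, 178.2, 341.9 and 677.4 in LCM20, 674.9, 425.7, 435.4, 206.9 and 151.3 in LCM800, and 8537, 9089, 4175 and 7629 in sieved. Every laser-captured array was below every sieved array, while LCM20 and LCM800 covered nearly the same range. The mean signal was 379.2 ± 211.6 in LCM20 (SD, n = 4), 378.8 ± 208.8 in LCM800 (n = 5) and 7357 ± 2205 in sieved (n = 4), so that both laser-captured groups stood at 5.15% of the sieved mean.

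The log2 change of Fxyd2 was -4.14 ± 0.38 (SE) in LCM800 against sieved, with a limma adjusted p of 7.87e-07, and -4.12 ± 0.40 in LCM20 against sieved, with a limma adjusted p of 1.69e-06. Both fits share the sieved arrays. The order of its levels was LCM20 and LCM800 together, then sieved. LCM20 differed from LCM800 by 0.02 ± 0.38 (limma adjusted p = 0.982), with a 95% interval of -0.77 to 0.82. That difference was 0.76 without LCM800 replicates 1 to 3 and -0.47 without replicates 4 and 5, and neither passed. Within LCM800 the mean change from sieved was -3.65 for replicates 1 to 3 and -4.87 for replicates 4 and 5. Within sieved, replicate 3 was the lowest for Fxyd2, and it was also the lowest for the proximal tubule markers.

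The proximal tubule markers moved with Fxyd2 between the laser-captured and the sieved groups. The summed signal of the 19 proximal tubule markers was 24949 to 58970 in LCM20, 31735 to 64526 in LCM800 and 93513 to 178309 in sieved, and their mean log2 value was 9.10 to 10.34 in LCM20, 9.65 to 10.37 in LCM800 and 11.88 to 12.99 in sieved. Among them Slc13a1, a sodium sulfate cotransporter, had signals of 22.9 to 121.8 in LCM20, 32.1 to 148.8 in LCM800 and 1133 to 2336 in sieved. The 11 markers of the loop, distal tubule and collecting duct summed to 6031 to 16485 in LCM20, 16480 to 22172 in LCM800 and 22122 to 45967 in sieved. By this sum the highest LCM800 array just reached the lowest sieved array. The mean log2 value of these markers did not overlap sieved, with 8.63 to 9.56 in LCM20, 9.24 to 10.07 in LCM800 and 10.20 to 11.37 in sieved. Within LCM800 their mean log2 value was 9.24 to 9.47 on replicates 1 to 3. It was 9.73 and 10.07 on replicates 4 and 5, on which Fxyd2 was lowest. Their sum did not separate these arrays, with 17132 to 21921 on replicates 1 to 3 and 16480 and 22172 on replicates 4 and 5. The proximal tubule sum was 44687 to 64526 on replicates 1 to 3 and 31735 and 38277 on replicates 4 and 5. The proximal tubule mean log2 value overlapped, with 9.76 to 10.37 and with 9.65 and 9.82. The part of tubule RNA in the result for Fxyd2 was not tested. In such bulk samples, fewer cells of a type and less RNA per cell cannot be told apart.

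Atp1b1, the beta subunit of most pumps in tubule epithelium, was lower in LCM800 than in sieved glomeruli by both of its probe sets, and in LCM20 by 1 of them. Probe set 1367814_at had signals of 2104, 722.3, 1151 and 1702 in LCM20, 2159, 2066, 1796, 1404 and 1323 in LCM800, and 14099.6, 15494, 9144 and 12977 in sieved. All 9 laser-captured arrays were below the lowest sieved array, and LCM20 overlapped LCM800. Its mean was 1420 ± 607.4 in LCM20 (SD, n = 4), 1749.6 ± 378.0 in LCM800 (n = 5) and 12929 ± 2725 in sieved (n = 4), or 11.0% of sieved in LCM20 and 13.5% in LCM800.

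Its log2 change was -2.84 ± 0.29 (SE) in LCM800 against sieved (limma adjusted p = 2.27e-06) and -3.20 ± 0.30 in LCM20 against sieved (limma adjusted p = 1.51e-06). LCM20 differed from LCM800 by -0.36 ± 0.29 (limma adjusted p = 0.516), with a 95% interval of -0.97 to 0.25. The order of the levels of 1367814_at was therefore LCM20, LCM800 and sieved, where LCM20 and LCM800 did not differ beyond their spread. The change in LCM800 was present in both parts of the group, with -2.63 for replicates 1 to 3 and -3.16 for replicates 4 and 5.

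The second probe set of Atp1b1, 1386937_at, gave a smaller difference and split LCM800. Its signals were 9299, 6367, 5259 and 9068 in LCM20, 2467, 2099, 3318, 8743 and 8120.2 in LCM800, and 13129, 14871, 8955 and 13868 in sieved. LCM800 replicates 1 to 3 were below every other array, LCM800 replicates 4 and 5 lay within the LCM20 range, and LCM20 reached into the sieved range. The log2 change was -1.57 ± 0.39 (SE) in LCM800 against sieved (limma adjusted p = 0.00355) and -0.77 ± 0.41 in LCM20 against sieved (limma adjusted p = 0.138), with a 95% interval of -1.65 to 0.11.

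The LCM800 call of 1386937_at rested on replicates 1 to 3. Their mean change from sieved was -2.24, against -0.56 for replicates 4 and 5. With replicates 1 to 3 left out, the change was -0.56 (limma adjusted p = 0.134) and the comparison of LCM20 with sieved then passed at the same -0.77 (limma adjusted p = 0.0174). LCM20 differed from LCM800 by 0.80 ± 0.39 (limma adjusted p = 0.298; 95% interval -0.03 to 1.63). Without LCM800 replicates 4 and 5 that difference was 1.47 (limma adjusted p = 0.00188), and without replicates 1 to 3 it was -0.21 (limma adjusted p = 0.895). The order of the levels was LCM800, LCM20 and sieved, and neither LCM800 and LCM20 nor LCM20 and sieved differed beyond their spread in the unweighted fit of all arrays. With array weights both did, by 1.15 for LCM20 against LCM800 (limma adjusted p = 0.0481) and by -0.87 for LCM20 against sieved (limma adjusted p = 0.0150).

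The 2 probe sets of Atp1b1 were then set against each other within each array, a comparison chosen after their values were seen. The log2 value of 1367814_at minus that of 1386937_at was -2.41 ± 0.43 in LCM20 (SD, n = 4), -1.24 ± 1.25 in LCM800 (n = 5) and 0.02 ± 0.08 in sieved (n = 4). The group difference was -2.43 in LCM20 against sieved (exact two-sided permutation p = 0.0286, the smallest possible with 4 against 4; adjusted over 3 tests, 0.0476) and -1.27 in LCM800 against sieved (exact p = 0.0317; adjusted 0.0476). LCM20 against LCM800 gave -1.17 (exact p = 0.175). Per array the difference was -2.11, -3.03, -2.13 and -2.37 in LCM20, -0.19, -0.02, -0.86, -2.58 and -2.56 in LCM800, and 0.10, 0.06, 0.03 and -0.10 in sieved. In LCM800 it was large on replicates 4 and 5, which lay among the LCM20 arrays, and replicate 2 lay within the sieved range. The LCM800 difference from sieved was -0.38 without replicates 4 and 5 (exact permutation p = 0.114) and -2.60 without replicates 1 to 3, where 2 against 4 arrays cannot give a p under 0.133. The probe sets thus changed unequally in LCM20, and in LCM800 through replicates 4 and 5, without showing which of them follows the gene.

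The 3′ and 5′ probe sets of control transcripts differed more in LCM800 than in sieved. The β-actin control, whose 3′ probe set minus 5′ probe set in log2 units grows when the 5′ part of a transcript is missing from the labelled RNA, stood at 1.33, 1.52, 2.06 and 2.29 in LCM20, 2.80, 3.54, 4.01, 1.78 and 1.71 in LCM800, and 0.53 to 0.57 in sieved. Its highest values were those of LCM800 replicates 1 to 3. The difference from sieved was 2.22 in LCM800 (exact two-sided permutation p = 0.0159, adjusted over 6 tests 0.0476) and 1.25 in LCM20 (exact p = 0.0286, adjusted 0.0571), and LCM20 differed from LCM800 by -0.97 (exact p = 0.143, adjusted 0.214). The Gapdh control gave 1.14 ± 1.38 in LCM20 (SD, n = 4), 1.22 ± 0.49 in LCM800 (n = 5) and 0.52 ± 0.15 in sieved (n = 4), which differed between LCM800 and sieved (exact permutation p = 0.0159, adjusted 0.0476) and not detectably between LCM20 and sieved (exact permutation p = 0.543, adjusted 0.651). Per array Gapdh stood at 0.85, -0.22, 0.85 and 3.06 in LCM20, 1.24, 1.11, 1.08, 2.02 and 0.68 in LCM800, and 0.36 to 0.66 in sieved. Unlike those of β-actin, its highest values were not those of LCM800 replicates 1 to 3. The part of transcript ends in the values of either probe set of Atp1b1, or of Atp1b3, was not tested.

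**Figure D2:**
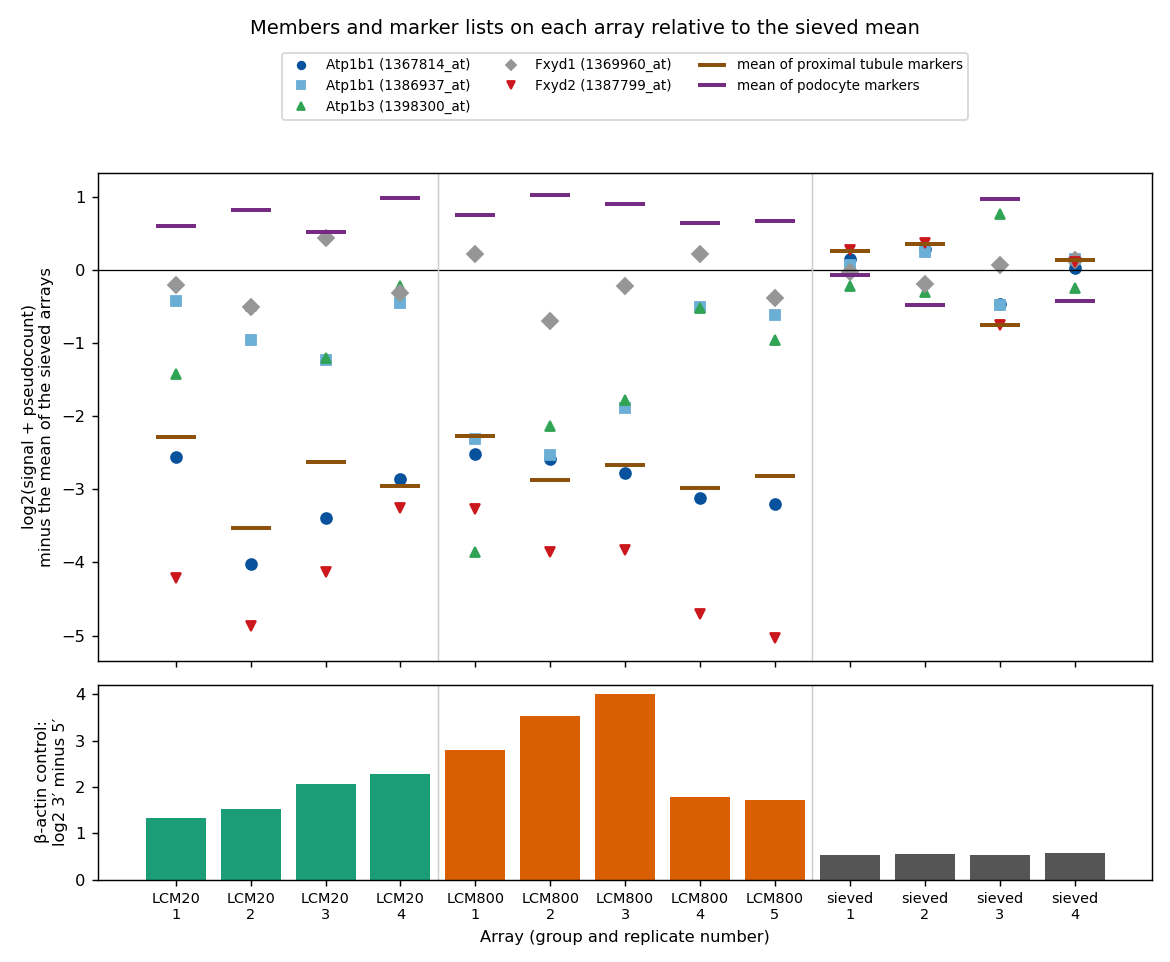
Upper panel: log2(signal + pseudocount) of 5 probe sets on each array minus the mean of the sieved arrays, with the mean of the proximal tubule and podocyte markers as horizontal bars; lower panel: the β-actin 3′ minus 5′ control on the same arrays. LCM20, LCM800 and sieved run from left to right. LCM800 replicates 1 to 3 have the lowest 1386937_at and Atp1b3 and the highest β-actin values, and sieved replicate 3 is high for Atp1b3 and podocyte markers and low for Fxyd2 and proximal tubule markers. The Gapdh control, which is not drawn, is not highest on LCM800 replicates 1 to 3.

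Atp1b3, a beta subunit with broad expression across tissues, was lower in LCM800 than in sieved, with the widest spread of the members within LCM800. Its signals were 769.0, 1532, 911.8 and 1857 in LCM20, 90.1, 448.8, 590.5, 1499 and 1097 in LCM800, and 1868, 1756, 3759 and 1828 in sieved. LCM800 lay wholly below sieved, LCM20 reached into the sieved range on 1 array, and sieved replicate 3 stood apart above the other sieved arrays. The mean was 1267 ± 513.9 in LCM20 (SD, n = 4), 744.9 ± 555.0 in LCM800 (n = 5) and 2303 ± 971.9 in sieved (n = 4), or 55.0% of sieved in LCM20 and 32.4% in LCM800.

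The log2 change of Atp1b3 was -1.85 ± 0.51 (SE) in LCM800 against sieved (limma adjusted p = 0.00697) and -0.84 ± 0.54 in LCM20 against sieved (limma adjusted p = 0.215), with a 95% interval of -1.98 to 0.31. LCM20 differed from LCM800 by 1.01 ± 0.51 (limma adjusted p = 0.315; 95% interval -0.07 to 2.09). As for 1386937_at, the LCM800 call rested on replicates 1 to 3, whose mean change from sieved was -2.59, against -0.74 for replicates 4 and 5. Without replicates 1 to 3, the LCM800 change was -0.74 (limma adjusted p = 0.125), and LCM20 against sieved then passed at -0.84 (limma adjusted p = 0.0362). Without replicates 4 and 5, LCM20 was higher than LCM800 by 1.75 (limma adjusted p = 0.0109). The order of its levels was LCM800, LCM20 and sieved, with no neighbours that differed beyond their spread in the fit of all arrays.

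Fxyd1, phospholemman, is the pump regulator of heart and skeletal muscle, a target of protein kinases A and C there, and is known in rat kidney from the afferent arteriole and the mesangium outside the glomerulus. It gave overlapping signals in all groups, with 250.5, 190.9, 425.7 and 225.3 in LCM20, 354.6, 157.8, 246.4, 355.7 and 212.4 in LCM800, and 291.2, 253.5, 315.7 and 333.7 in sieved. The lowest and the highest arrays were both laser-captured. The mean was 273.1 ± 104.6 in LCM20 (SD, n = 4), 265.4 ± 87.8 in LCM800 (n = 5) and 298.6 ± 34.7 in sieved (n = 4).

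The log2 change of Fxyd1 was -0.18 ± 0.23 (SE) in LCM800 against sieved (limma adjusted p = 0.544; 95% interval -0.67 to 0.32) and -0.15 ± 0.25 in LCM20 against sieved (limma adjusted p = 0.651; 95% interval -0.67 to 0.38). LCM20 differed from LCM800 by 0.03 ± 0.23 (limma adjusted p = 0.964; 95% interval -0.47 to 0.53). No order of its levels held beyond the spread. Of 6 tested vascular smooth muscle and juxtaglomerular markers, 2 rose, 1 fell and 3 did not pass in LCM800 against sieved (median 0.18). In LCM20 against sieved 2 rose, 2 fell and 2 did not pass (median -0.14). Of all tested probe sets, 31.8% rose and 20.1% fell in LCM800, and 26.2% rose and 19.2% fell in LCM20. The LCM800 counts stood near these shares. The markers summed to 5472 to 7883 in LCM20, 5855 to 6532 in LCM800 and 4927 to 6165 in sieved.

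Atp1b2, known in rodent brain as the adhesion molecule on glia, was dim throughout. Its signals were 20.4, 14.1, 16.6 and 16.1 in LCM20, 30.3, 13.8, 28.1, 19.6 and 32.1 in LCM800, and 24.0, 33.5, 11.7 and 12.3 in sieved. All 13 values were under the added 65.3, their ranges overlapped between groups, and no order is given. Of 3 tested nerve and glia markers, 2 rose in LCM800 and 1 rose in LCM20, each against sieved, and the others did not pass. Of all tested probe sets, 31.8% rose in LCM800 and 26.2% in LCM20. Without LCM800 replicates 1 to 3, 1 of the 3 rose in LCM800. The summed signal of the 3 markers was 484.6 to 1125 in LCM20, 674.0 to 1119 in LCM800 and 393.8 to 500.7 in sieved.

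**Figure D3:**
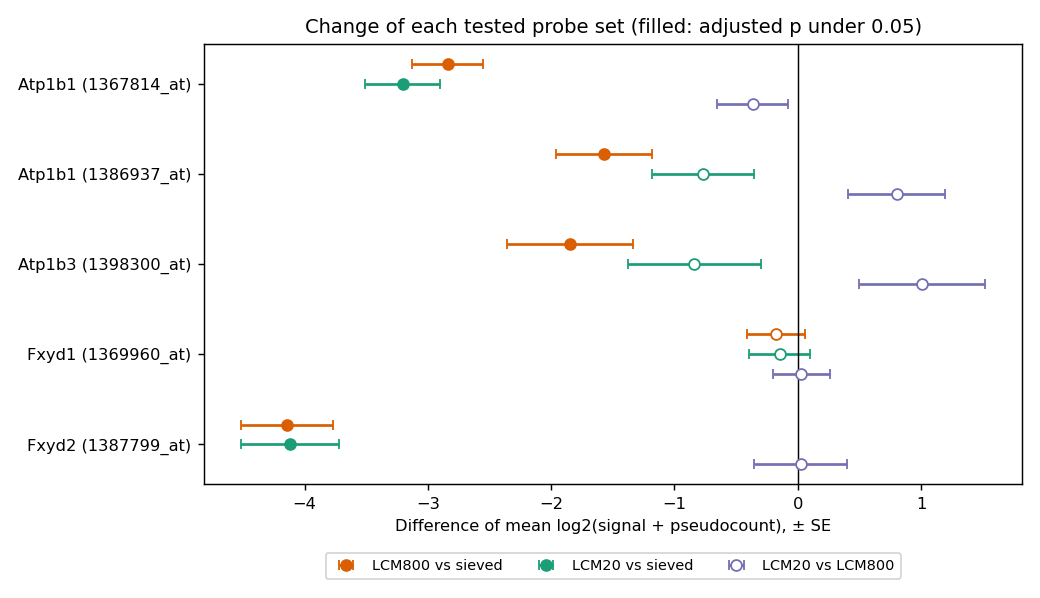
Log2 change ± SE of the 5 tested probe sets in LCM800 against sieved, LCM20 against sieved and LCM20 against LCM800, from 1 limma fit of all 13 arrays; filled points passed an adjusted p under 0.05. Fxyd2 and 1367814_at lie lowest in both comparisons with sieved, Fxyd1 lies near 0 in all 3, and no point of LCM20 against LCM800 is filled.

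To ask whether members changed by different amounts, the within-array log2 difference of each pair of genes was compared between groups, with Atp1b1 taken by its brighter probe set 1386937_at. These were 18 tests over 6 pairs and 3 comparisons. None passed after adjustment over the 18, where the lowest adjusted value was 0.0816. The smallest p that the exact test can give is 0.0159 for 5 against 4 arrays and 0.0286 for 4 against 4. Over 18 tests, a pair at that smallest p cannot pass unless several others are as low. That none passed therefore does not show that members changed alike.

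Fxyd1 minus Fxyd2 changed by 3.97 both in LCM800 against sieved (exact two-sided permutation p = 0.0159) and in LCM20 against sieved (exact p = 0.0286). Atp1b1 minus Fxyd2 changed by 2.57 in LCM800 (exact permutation p = 0.0159) and by 3.35 in LCM20 (exact permutation p = 0.0286), each against sieved. Atp1b3 minus Fxyd2 changed by 2.29 in LCM800 (exact permutation p = 0.0794) and by 3.28 in LCM20 (exact permutation p = 0.0286). In each of these Fxyd2 had the more negative change. None passed after adjustment, which no pair could do alone at the smallest possible p. The LCM800 sizes moved with the arrays: Atp1b1 minus Fxyd2 was 1.41 without replicates 4 and 5 and 4.31 without replicates 1 to 3, and Atp1b3 minus Fxyd2 was 1.06 and 4.14. With 1367814_at for Atp1b1, Atp1b1 minus Fxyd2 was 1.30 in LCM800 and 0.91 in LCM20, each against sieved. Between the beta subunits, Atp1b1 minus Atp1b3 changed by 0.27 in LCM800 (exact permutation p = 0.619) and 0.07 in LCM20 (exact permutation p = 0.914), while with 1367814_at it was -0.99 in LCM800 and -2.37 in LCM20 (exact permutation p = 0.302 and 0.0571), so its sign depends on the probe set.

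Over the 13 arrays, as a description, 1367814_at followed Fxyd2 with a Pearson r of 0.98, and 0.78 after the group means were taken out. The other Atp1b1 probe set followed Atp1b3 instead, with r of 0.80, and 0.59 without the group means. The 2 Atp1b1 probe sets had an r of 0.56 with each other, and -0.09 without the group means. Within groups Atp1b3 ran against Fxyd2, with r of -0.64 once the group means were out, although over all arrays it was 0.42. These points share the arrays, their scaling and the differences between the groups.

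The genes whose pattern over the 13 arrays was nearest to each member were found by Pearson r of log2 values. That r includes the differences within groups, so the r without the group means, on the same arrays, is no separate support. For Fxyd2 they were Apoe, an apolipoprotein, Bsg, the membrane glycoprotein basigin, and Grina, a membrane protein of the transmembrane BAX inhibitor motif family. Their r was 0.995, 0.994 and 0.990, and 0.95, 0.92 and 0.94 without the group means. Apoe averaged 97.7 in LCM20, 99.98 in LCM800 and 2087 in sieved, low in both laser-captured groups like Fxyd2.

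For 1386937_at of Atp1b1 the nearest genes were Slc25a5 and Slc25a3, the mitochondrial carriers of adenine nucleotides and of phosphate, and Selenop, the selenium transport protein of plasma, with r of 0.99, 0.97 and 0.97. Without the group means r was 0.97, 0.93 and 0.95. Slc25a5 averaged 3661 in LCM20, 2059 in LCM800 and 7563 in sieved, in the same order as 1386937_at. For Atp1b3 they were Rab6a, a GTPase of Golgi traffic, Cnn3, the actin-binding calponin of non-muscle cells, and B2m, the light chain of class I histocompatibility molecules, each with r of 0.97. B2m averaged 4937 in LCM20, 2902 in LCM800 and 9296 in sieved, again lowest in LCM800. For Fxyd1 they were Cntf, a neurotrophic cytokine, Asb8 and Coro6, with r of 0.82, 0.81 and 0.80, the weakest likeness of any tested member.

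The wider pump family, fixed as a list of 13 genes, had 10 on the array and 7 past the filter. In LCM800 against sieved 3 rose, 1 fell and 3 did not pass, with a median of 0.53 beside 0.22 for all probe sets, of which 31.8% rose and 20.1% fell. In LCM20 against sieved none rose, 2 fell and 5 did not pass, with a median of 0.39 beside 0.17 and shares of 26.2% and 19.2%. Between LCM20 and LCM800 limma called none of the 7, and 1 had an unadjusted p under 0.05. Without LCM800 replicates 1 to 3, the LCM800 count was 1 higher and 1 lower.

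Among the FXYD genes, Fxyd6, phosphohippolin, fell in both laser-captured groups. Its signals were 236.6 to 507.0 in LCM20, 300.5 to 481.9 in LCM800 and 750.5 to 996.8 in sieved, with no overlap with sieved. Its change was -1.09 in LCM800 (limma adjusted p = 0.00107) and -1.26 in LCM20 (limma adjusted p = 0.000631), each against sieved. Fxyd4, the channel-inducing factor of the collecting duct, had signals of 45.7 to 421.7 in LCM20, 162.6 to 430.0 in LCM800 and 267.4 to 1096 in sieved. It fell by 1.25 on the log2 scale in LCM20 against sieved (limma adjusted p = 0.0277), while its -0.90 in LCM800 did not pass (limma adjusted p = 0.0782).

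Other FXYD genes were higher. Fxyd7, known from neurons, rose by 1.19 in LCM800 against sieved (limma adjusted p = 0.000913), with signals of 101.4 to 217.3 in LCM20, 139.7 to 388.5 in LCM800 and 48.8 to 103.7 in sieved, and its 0.62 in LCM20 did not pass (limma adjusted p = 0.0595). Fxyd3 rose by 0.69 in LCM800 (limma adjusted p = 0.00994) and its 0.52 in LCM20 did not pass (limma adjusted p = 0.0553). Fxyd5, dysadherin, which is known to reduce cell adhesion, had changes of 0.53 in LCM800 and 0.39 in LCM20 that did not pass (limma adjusted p = 0.200 and 0.390). In the rat gene table of the assembly GRCr8, Fxyd6 and Fxyd2 are next to each other among protein-coding genes, and Fxyd5, Fxyd7 and Fxyd1 follow each other, with Lgi4 between Fxyd1 and Fxyd3. Of the adjacent pair, Fxyd6 and Fxyd2 both fell, while in the other run Fxyd7 and Fxyd3 rose in LCM800 and Fxyd1 and Fxyd5 did not pass. Of all tested probe sets, 31.8% rose and 20.1% fell in LCM800. The part of gene position in these changes was not tested.

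The related proton pumps were near the dim end. Atp12a, the alpha subunit of the colonic H,K-ATPase, rose by 0.61 in LCM800 (limma adjusted p = 0.0330), with signals of 110.7 to 261.1 in LCM20, 143.1 to 275.5 in LCM800 and 101.0 to 145.2 in sieved. Atp4a, the gastric alpha subunit, had 0.51 in LCM800 and 0.20 in LCM20, neither past the test (limma adjusted p = 0.0625 and 0.490). Atp1a4, Atp1b4 and Atp4b, the alpha subunit of sperm, a muscle protein of the beta family and the gastric beta subunit, were below the filter, and Atp1a4 was under the added 65.3 on all 13 arrays.

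The channels and transporters that run on the pump gradient in tubule cells formed a list of 43 genes, of which 34 were on the array and 31 were tested. The list also holds 2 tested genes that are neither, Umod, the secreted glycoprotein uromodulin, which is among the falls in both comparisons, and Cldn16, a tight junction protein, which did not pass in either. In LCM800 against sieved 19 fell, 3 rose and 9 did not pass, with a median of -0.996. In LCM20 against sieved 23 fell, 2 rose and 6 did not pass, with a median of -2.01. The medians of all probe sets were 0.22 and 0.17, and 20.1% and 19.2% of them fell. Between LCM20 and LCM800 limma called none, and 4 had an unadjusted p under 0.05. Of the genes of this list and of the regulators below that have a probe set, 12 also stand in a tubule or mesangial marker list, so the lists are not independent of those markers.

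The largest falls in LCM800 were those of Slc4a4, the basolateral sodium bicarbonate cotransporter, and Slc5a2, the sodium glucose cotransporter of the early proximal tubule. Slc4a4 averaged 223.1 in LCM20, 147.4 in LCM800 and 3614 in sieved, a log2 change of -4.17 ± 0.31 (SE) in LCM800 against sieved (limma adjusted p = 1.37e-07). Slc5a2 averaged 77.5 in LCM20, 136.5 in LCM800 and 2475 in sieved, with changes of -3.72 in LCM800 (limma adjusted p = 4.33e-07) and -4.10 in LCM20 (limma adjusted p = 5.09e-07). Slc13a1, the sodium sulfate cotransporter, fell by 3.95 on the log2 scale in LCM20 (limma adjusted p = 7.45e-07). The changes of Fxyd2 in the same fits were -4.14 and -4.12.

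The 2 largest rises of the list passed in both laser-captured groups. Slc12a2, the sodium, potassium and chloride cotransporter found in most tissues, had signals of 3728 to 4265 in LCM20, 2455 to 4009 in LCM800 and 999.6 to 1798 in sieved, with no overlap with sieved. It rose by 1.34 in LCM800 (limma adjusted p = 0.00013) and by 1.67 in LCM20 (limma adjusted p = 4.13e-05). Kcnma1, the large-conductance calcium-activated potassium channel known in smooth muscle and mesangial cells, rose by 0.89 in LCM800 (limma adjusted p = 0.00694) and by 0.70 in LCM20 (limma adjusted p = 0.0371).

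Genes that regulate or anchor the pump and its partners formed a list of 35, with 31 on the array and 24 tested. In LCM800 against sieved 9 fell, 1 rose and 14 did not pass (median -0.31), and in LCM20 against sieved 7 fell, 3 rose and 14 did not pass (median -0.42). In all, 10 of the 24 were called in each comparison, where the share of all probe sets was 51.9% in LCM800 and 45.3% in LCM20, and the medians of all probe sets were 0.22 and 0.17. Between LCM20 and LCM800 limma called none, and 5 had an unadjusted p under 0.05. Without LCM800 replicates 1 to 3, 8 fell and 5 rose in LCM800, and 10 fell and 3 rose in LCM20, each against sieved.

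Ank3, an ankyrin, of the adaptor family that ties the pump to the spectrin skeleton, fell by 2.01 on the log2 scale in LCM800 (limma adjusted p = 4.69e-05) and by 2.03 in LCM20 (limma adjusted p = 9.53e-05). Nedd4, a ubiquitin ligase, fell by 1.82 in LCM800 (limma adjusted p = 0.000209). Hsd11b2, the enzyme that protects the mineralocorticoid receptor from glucocorticoids in the distal nephron, fell by 2.05 in LCM20 (limma adjusted p = 0.000135).

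On the other side, Agtr1a, an angiotensin II receptor, rose by 1.66 in LCM20 (limma adjusted p = 0.00386), with signals of 1681 to 5392 in LCM20, 1036 to 3405 in LCM800 and 600.1 to 1614 in sieved. Nr3c1, the glucocorticoid receptor, rose by 1.15 in LCM20 (limma adjusted p = 0.0126). Stk39, a kinase that acts on cation chloride cotransporters, rose by 0.68 in LCM800 (limma adjusted p = 0.0234).

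**Figure D4:**
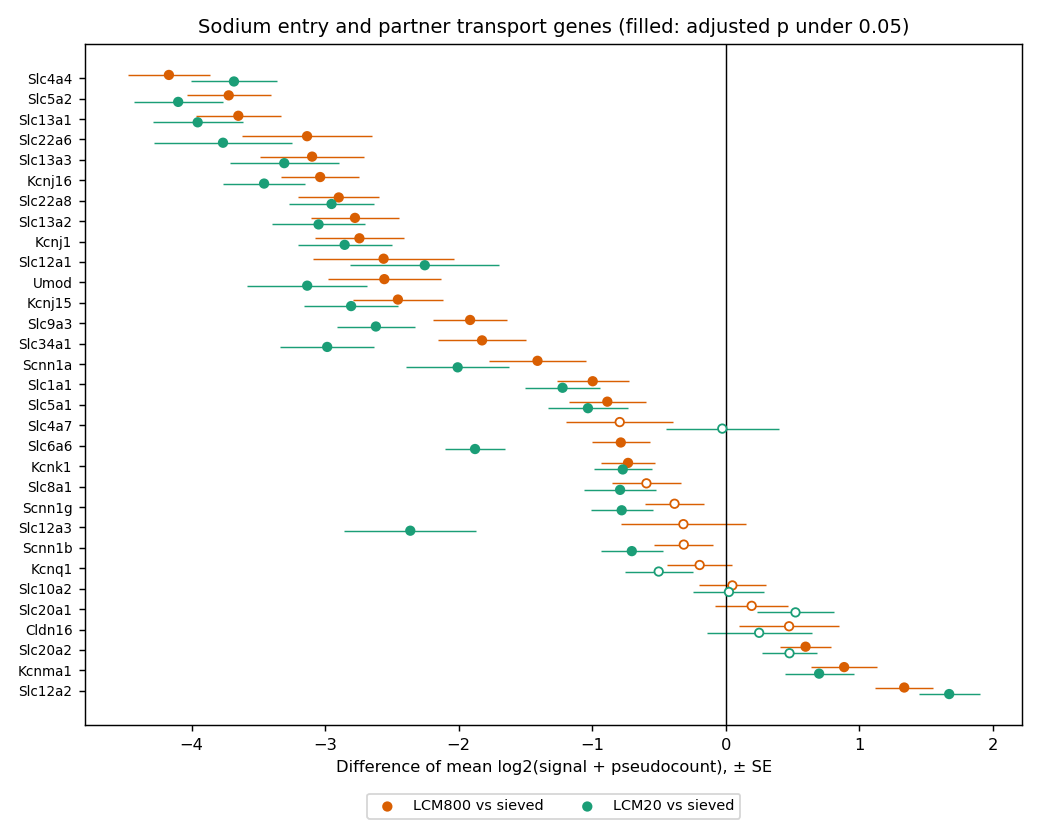
Log2 change ± SE against sieved of the 31 tested genes of the list of channels and transporters that run on the pump gradient, in LCM800 and LCM20, ordered by the change in LCM800; filled points passed an adjusted p under 0.05. Most genes lie below 0, with Slc4a4, Slc5a2 and Slc13a1 lowest in LCM800, and Slc12a2 lies highest.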

How the data were processed

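The authors deposited 1 column of array signals, on a linear intensity scale, for each of 13 samples; MAS5 made them, per the submitters' processing notes. The trimmed mean of every array (2% left out at each end) was 500.1, so no further scaling was applied. Precision is limited by how many arrays each group has. From the deposited intensities, log2(signal + 65.3) was computed, where 65.3 is the 20th percentile of all signals. Left out were 57 controls and the 30% of probe sets lowest by mean log2 (under a signal of about 131). Symbols came from the platform annotation, with 12783 probe sets having 1 symbol, 312 several and 2771 none.

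The test was that of limma 3.58.1 under R 4.3.3, fitted once to all 3 groups with a trend in eBayes and no block, and with Benjamini-Hochberg adjustment over 11106 probe sets. The procedure was tested on simulated data. Single differences used exact two-sided permutation tests over arrays (Python 3.11.15, scipy 1.17.1). P-values measure only the spread between the arrays. Lists are described by counts and medians. They were written from general knowledge, and cover the pump family, its transport partners, its regulators, and markers of podocytes, endothelium, mesangium, smooth muscle and juxtaglomerular cells, proximal tubule, later tubule, leukocytes, erythrocytes, and nerve and glia. The members and lists were chosen with earlier results of these data known. The text names all members, the 3 genes nearest to each member by r, every measured pump family gene, and the 2 largest rises and falls among called partners and regulators. A gene was represented by its brightest tested probe set. Between samples of equal replicate number, the r of deviations from group means was -0.24 to 0.23. Other differences between arrays of a group enter this r, so it cannot tell whether equal numbers mark the same rat. Alternatives covered scaling, pseudocount, filter, trend, weights, block and left-out arrays.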

Additional observations from a re-analysis of the deposited data

Results flagged for a closer look

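Of 18 sets of arrays examined (6 probe sets in 3 groups), 1 held an array far from its group. Atp1b3 had a signal of 3759 on sieved replicate 3, where the other 3 sieved arrays had 1756 to 1868. The gap to the nearest array was 0.92 of the whole range of the group, above the critical value of 0.829, and chance gives such a flag in about 1 of 20 groups. The same array was the lowest of the sieved group for the proximal tubule markers, with a mean log2 value of 11.88 against 12.76 to 12.99 on the others. It was the highest for the podocyte markers, with 11.58 against 10.14 to 10.54, and for the glomerular endothelial markers, with 10.35 against 9.07 to 9.35. The part of these differences in the Atp1b3 value was not tested. The difference between LCM800 and sieved for Atp1b3 passed in every fit that left out 1 array, with changes of -2.18 to -1.34.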

How the results depend on the processing

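Fxyd2 and 1367814_at of Atp1b1 stayed lower and past the threshold in LCM800 and LCM20 against sieved under every alternative run, and Fxyd1 passed under none. With 1 array left out, 4 members were called in LCM800 against sieved, 2 in LCM20 against sieved and 0 in LCM20 against LCM800 each time, and all calls numbered 4941 to 5836, 4143 to 5176 and 0 to 502. LCM20 against LCM800 gave 17 calls over all probe sets with all arrays, 10 with no pseudocount, 10 with no filter, 859 with array weights, 0 with only those groups in the fit, and 2581 without LCM800 replicates 4 and 5. Without LCM800 replicate 4 it gave 502, without replicate 5 195, and with any of replicates 1 to 3 left out 0. With the lowest 60% left out, which tests fewer probe sets, 3503 and 3260 were called in LCM800 and LCM20 against sieved. With the replicate number as a block, member calls did not change, all calls between LCM20 and LCM800 fell to 0, and Fxyd1 and Fxyd2 there were -0.023 and -0.20. Members called in LCM20 against sieved were 4 with only those groups in the fit (1386937_at and Atp1b3, limma adjusted p = 0.0248 and 0.0458). They were also 4 without LCM800 replicates 1 to 3, when LCM800 against sieved gave 2. In these fits calls over all probe sets in LCM20 against sieved lay within 3260 to 6422. Between LCM20 and LCM800, members called were 1 with array weights (1386937_at, 1.15, limma adjusted p = 0.0481) and 2 without replicates 4 and 5. In LCM20 against sieved, 1386937_at also passed with array weights (-0.87, limma adjusted p = 0.0150) and without LCM800 replicates 4 and 5 (limma adjusted p = 0.0187). The mean of both Atp1b1 probe sets was -1.99 in LCM20 against sieved (limma adjusted p = 4.88e-05). Changes near 0 between LCM20 and LCM800 turned sign: Fxyd2 at -0.21 with array weights, -0.47 without LCM800 replicates 4 and 5 and -0.26 to 0.27 with 1 array out; Fxyd1 at -0.16 to 0.15 with 1 array out; and, without replicates 1 to 3, Fxyd1 at -0.061, 1386937_at at -0.21 and Atp1b3 at -0.10. No pair difference passed its adjusted threshold, which says nothing of stability where arrays are left out, since 3 against 4 cannot give a p under 0.0571 nor 2 against 4 one under 0.133. Those that turned sign were Atp1b1 minus Atp1b3 at -0.052 by quantile normalization (LCM20 against sieved), at -0.030, -0.010 and 0.020 with 4 times the pseudocount (LCM800 against sieved, LCM20 against sieved, LCM20 against LCM800) and at -0.14 to 0.46, -0.35 to 0.25 and -0.52 to 0.11 with 1 array out. Fxyd1 minus Fxyd2 between LCM20 and LCM800 was -0.20 to 0.35 with 1 array out. Without replicates 1 to 3, LCM20 against LCM800 gave Atp1b1 minus Fxyd1 -0.15, Atp1b1 minus Fxyd2 -0.96, Atp1b3 minus Fxyd1 -0.039, Atp1b3 minus Fxyd2 -0.86 and Fxyd1 minus Fxyd2 -0.82. With Atp1b1 by 1367814_at, chosen after the data were seen, Atp1b1 minus Atp1b3 was -0.99 in LCM800 and -2.37 in LCM20 against sieved, and between LCM20 and LCM800 Atp1b1 minus Fxyd1 and minus Fxyd2 were both -0.39. The counts of lists without sieved replicate 3 or parts of LCM800 were also added after the data were seen. Without replicates 4 and 5, 6 transport partners and 7 regulators were called between LCM20 and LCM800. The cause of these changes was not tested. Signals near the pseudocount, as for Atp1b2, limit what can be seen of dim genes.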
